A study of Malus domestica with 6 samples.

Results

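Patte de Loup, Reinette Parmentier and St Edmund's Pippin, all apple varieties with russeted skin, were compared with each other in RNA sequencing of fruit exocarp, the outer skin of Malus domestica. These are 3 of the 6 libraries of the study, taken by their variety labels. The other 3 libraries came from fully waxy varieties and enter no comparison here. Each russeted variety gave 1 library, from fully russeted fruit with no treatment named in the labels, so every difference between varieties is a description without a replicate check and without a test. Whether a library pooled several fruits or trees is not stated, and variety cannot be told apart from anything else in which the 3 samples differed. Of the 1261 gene models in the deposited table, 1133 had at least 50 total reads in 1 of the 3 libraries and were kept. The table holds genes that the authors had selected for a difference between russeted and waxy exocarp on these same libraries, so the counts describe those genes and not the whole exocarp.

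Russeting is the replacement of the smooth, wax-covered epidermis of a fruit by a periderm, a corky tissue. The walls of cork cells carry suberin, a polyester of long-chain hydroxy acids, glycerol and ferulic acid, interleaved with waxes, and apple periderm is also rich in triterpenes. The epidermis it replaces makes a cuticle of cutin and wax from fatty acids elongated in the endoplasmic reticulum, and several enzyme families, among them 3-ketoacyl-CoA synthases (KCS), glycerol-3-phosphate acyltransferases (GPAT) and ABCG transporters, have separate members for suberin and for cutin.

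Mapped reads were 11.3 M in St Edmund's Pippin, 19.1 M in Reinette Parmentier and 17.2 M in Patte de Loup, and the median kept gene had 138, 256 and 262 reads in that order of varieties. Levels are RPKM, that is, reads divided by the coding length of the gene and by library size in mapped reads. The gap of a gene is the difference in log2(RPKM + 1) between the variety that stands at one end and the nearer of the other 2, and a gene was called highest or lowest in a variety where the gap was at least 1. For called genes the ratio of RPKM to the nearer variety is given with a 95% interval from the reads, which covers counting error only. In a bulk sample, fewer cells of a type and less RNA per cell cannot be told apart. Genes are named by the Arabidopsis match in the table, and roles are those known from Arabidopsis. The library kit does not mark strand, so antisense transcripts cannot be told apart from their partners.

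St Edmund's Pippin stood furthest from the other 2, mostly on the low side. In St Edmund's Pippin 125 genes were lowest (11.0% of the kept genes) and 25 were highest (2.21%). In Reinette Parmentier 39 genes were highest (3.44%) and 33 were lowest (2.91%). In Patte de Loup 29 genes were highest (2.56%) and 39 were lowest (3.44%). When the libraries were rescaled by median ratios over the kept genes, Patte de Loup had 16 highest and 50 lowest genes, so its balance depended on the scaling, while St Edmund's Pippin still had 36 highest and 106 lowest. The median kept gene of Patte de Loup stood 0.15 above the mean of the other 2 on the log2 scale, against -0.02 in Reinette Parmentier and -0.08 in St Edmund's Pippin, and rescaling moved Patte de Loup by -0.13.

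**Figure D1:**
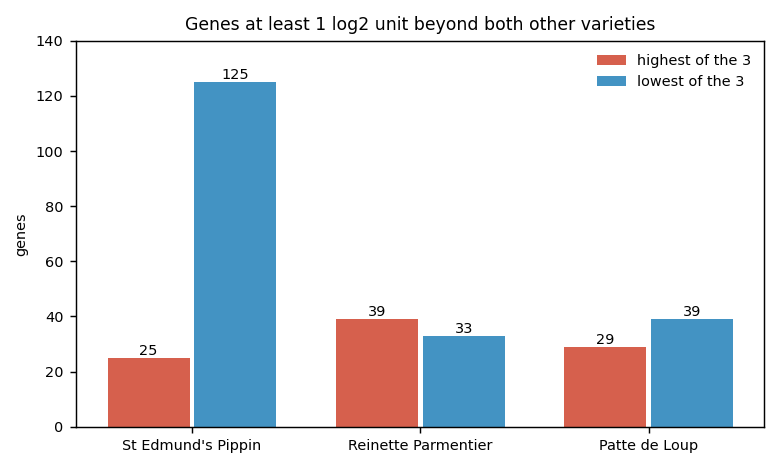
Genes whose log2(RPKM + 1) lay at least 1 beyond both other varieties, out of 1133 kept genes; bars give the number of genes highest (red) and lowest (blue) in each variety, 1 library each. St Edmund's Pippin has 125 lowest genes, and every other bar is at 39 or below.

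In all, 269 kept genes (23.7%) were called in some way, 21 of them in 2 ways. All 290 counting intervals lay on one side of 1, but the same reads had chosen the genes, so this is no separate check. Across kept genes, Pearson's r of log2(RPKM + 1) was 0.83 between St Edmund's Pippin and Reinette Parmentier, 0.83 between St Edmund's Pippin and Patte de Loup, and 0.87 between Reinette Parmentier and Patte de Loup. Differences of at least 1 were seen in 311, 297 and 179 genes for the same pairs. St Edmund's Pippin was also the shallowest library. Of its 125 lowest genes, 8 had under 10 reads in it, and with a minimum of 200 reads in 1 library 93 genes were still lowest there. Just inside the threshold the smallest gap of a gene lowest in St Edmund's Pippin was 1.00 and just outside the largest was 0.98. The reads of 240 kept genes were under 50% unique, which means that near-identical copies share them, and such genes are marked where they are named.

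Suberin genes followed one order. All 8 kept suberin genes were lowest in St Edmund's Pippin, intermediate in Reinette Parmentier and highest in Patte de Loup, an order seen in 259 of all 1133 kept genes (22.9%). They are CYP86A1, CYP86B1 and MYB93 in 2 copies each, KCS2 and GPAT5, and their summed RPKM was 107 in St Edmund's Pippin, 253 RPKM in Reinette Parmentier and 446 RPKM in Patte de Loup. The median deviation of a variety from the mean of the other 2 was -1.31 for St Edmund's Pippin, 0.07 for Reinette Parmentier and 1.41 for Patte de Loup. By the gap of 1, 4 members were lowest in St Edmund's Pippin and 2 were highest in Patte de Loup, of which 1 remained after rescaling by median ratios.

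The omega-hydroxylase CYP86A1 adds the terminal hydroxyl group of suberin monomers. Its copy MDP0000879217 had 16.0 RPKM in St Edmund's Pippin, against 72.6 RPKM in Reinette Parmentier and 115 RPKM in Patte de Loup, a ratio of 0.221 to Reinette Parmentier (0.195 to 0.25). The copy MDP0000923760 had 22.8 RPKM in St Edmund's Pippin, 47.0 RPKM in Reinette Parmentier and 86.6 RPKM in Patte de Loup. The synthase KCS2 (MDP0000625646), which elongates the acyl chains of root suberin, had 17.3 RPKM in St Edmund's Pippin, 52.4 RPKM in Reinette Parmentier and 83.6 RPKM in Patte de Loup, with a ratio of 0.329 (0.29 to 0.372). In these 3 genes Patte de Loup stood above Reinette Parmentier by less than 1 log2 unit. The steps of MDP0000923760 were nearly equal, at 1.01 between Reinette Parmentier and St Edmund's Pippin and 0.87 between Patte de Loup and Reinette Parmentier.

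GPAT5, the acyltransferase that joins suberin acids to glycerol, and 1 copy of MYB93 showed their large step at the other end. GPAT5 (MDP0000150502) had 45.9 RPKM in Patte de Loup, against 21.5 RPKM in Reinette Parmentier and 13.5 RPKM in St Edmund's Pippin, a ratio of 2.13 to Reinette Parmentier (1.93 to 2.36). After rescaling by median ratios the gap of GPAT5 was 0.94, below the threshold. MYB93 belongs to a group of MYB transcription factors with activators of suberin genes. Its copy MDP0000320772 had 28.8 RPKM in Patte de Loup, 10.9 RPKM in Reinette Parmentier and 7.40 RPKM in St Edmund's Pippin, with a ratio of 2.65 (2.25 to 3.12). The other copy, MDP0000228252, was lowest in St Edmund's Pippin at 3.53 RPKM, with 10.3 in Reinette Parmentier and 19.3 RPKM in Patte de Loup, but only 19.4% of its reads were unique. The CYP86B1 copies, omega-hydroxylases of the longest suberin acids, kept the same order within smaller gaps. MDP0000306273 had 14.5 RPKM in St Edmund's Pippin, 18.2 RPKM in Reinette Parmentier and 36.5 RPKM in Patte de Loup, and MDP0000234292 had 12.0, 20.5 and 30.9 RPKM in those varieties.

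Further genes with a suberin role in Arabidopsis were found outside the suberin list through their matched locus, and were looked up after their values had been seen. The HXXXD-type acyltransferase gene MDP0000312405 matches AT5G41040, the locus of ASFT, which puts ferulic acid on suberin monomers. It had 25.7 RPKM in St Edmund's Pippin, against 171 RPKM in Reinette Parmentier and 215 RPKM in Patte de Loup, a ratio of 0.15 to Reinette Parmentier (0.135 to 0.167), and was among the 8 largest gaps of its kind. The ABC-2 type transporter gene MDP0000265619 matches AT2G37360, the locus of the suberin transporter ABCG2. It had 23.6 RPKM in Patte de Loup, 11.1 RPKM in Reinette Parmentier and 7.60 RPKM in St Edmund's Pippin, with a ratio of 2.12 (1.97 to 2.28). The gene MDP0000241976 matches AT5G13580, the locus of ABCG6, and had 11.0 RPKM in St Edmund's Pippin, 33.7 RPKM in Reinette Parmentier and 42.3 RPKM in Patte de Loup, with 15.6% unique reads. These genes were picked from called ones, so their order adds no support to that of the suberin list. After rescaling by median ratios the gap of MDP0000265619 was 0.90, below the threshold.

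**Figure D2:**
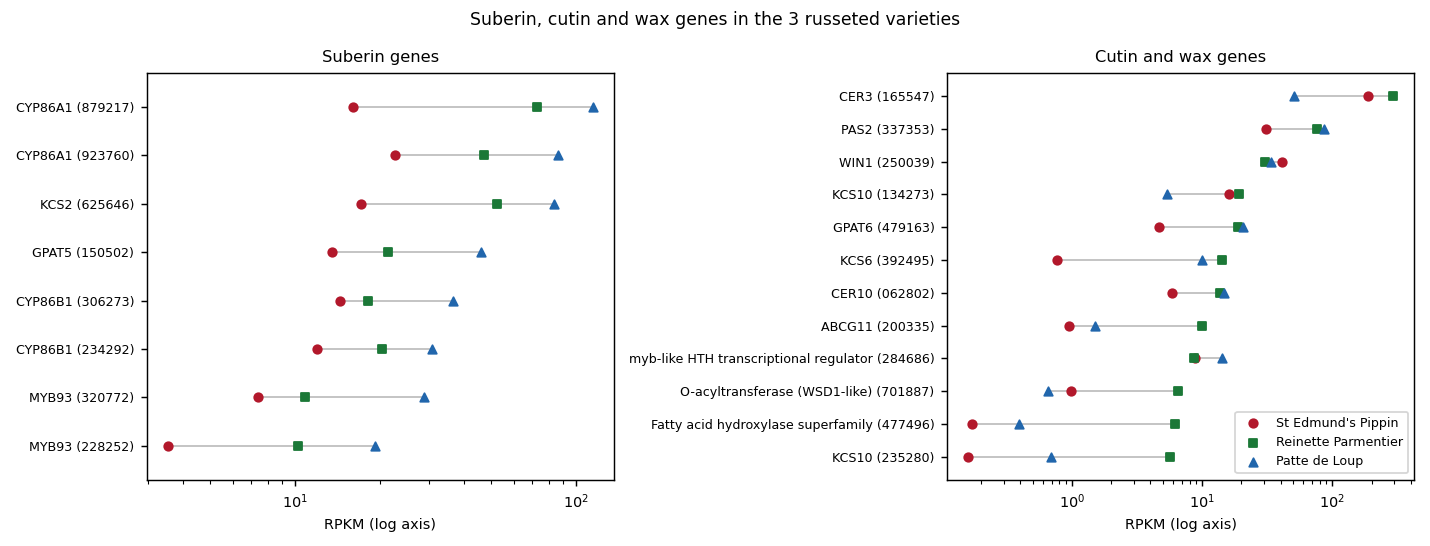
RPKM (log axis) of the 8 suberin genes (left) and the 12 cutin and wax genes (right) that were kept, 1 point per variety and gene, with the last 6 digits of the gene identifier in brackets. In each suberin gene the points run from St Edmund's Pippin through Reinette Parmentier to Patte de Loup, whereas the cutin and wax genes follow no single order.

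Cutin and wax genes set each variety apart in a different set of genes. Of 12 kept members, 4 were highest in Reinette Parmentier, 4 were lowest in St Edmund's Pippin and 2 were lowest in Patte de Loup, and 2 were within the threshold. Their median deviation was 1.26 in Reinette Parmentier, -0.39 in Patte de Loup and -1.26 in St Edmund's Pippin. Among all kept genes the shares of these calls were 3.44%, 11.0% and 3.44% in that order of calls. A gene could be kept through 1 library alone, so this count and median depend in part on the read minimum. With at least 200 reads in 1 library, 1 cutin and wax gene was highest in Reinette Parmentier. The summed RPKM of epidermis and cuticle markers (10 genes in the table, 7 of them kept) was 379 in Reinette Parmentier, 107 RPKM in Patte de Loup and 221 RPKM in St Edmund's Pippin, and none of these markers was at 0 reads in a library. CER3 alone carried 293 RPKM in Reinette Parmentier, 50.5 RPKM in Patte de Loup and 187 RPKM in St Edmund's Pippin of these sums. Without it the markers summed to 85.2 RPKM in Reinette Parmentier, 56.4 RPKM in Patte de Loup and 33.3 RPKM in St Edmund's Pippin, so the order of Patte de Loup and St Edmund's Pippin turned. The part of epidermis left on the fruit in these differences was not tested.

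The cutin and wax genes highest in Reinette Parmentier had at most 10.01 RPKM there. ABCG11 (MDP0000200335), the transporter that exports cutin and wax precursors, had 10.01 RPKM in Reinette Parmentier, against 1.51 RPKM in Patte de Loup and 0.95 RPKM in St Edmund's Pippin, a ratio of 6.63 (5.05 to 8.83). KCS10, or FIDDLEHEAD, an elongation enzyme of the epidermis (MDP0000235280), had 5.65 RPKM in Reinette Parmentier, 0.69 RPKM in Patte de Loup and 0.16 RPKM in St Edmund's Pippin, with a ratio of 8.21 (5.1 to 14.0) resting on 173, 19 and 3 reads in those varieties. A fatty acid hydroxylase gene (MDP0000477496, 48.9% unique reads) had 6.20 RPKM in Reinette Parmentier, 0.39 RPKM in Patte de Loup and 0.17 RPKM in St Edmund's Pippin. A WSD1-like gene (MDP0000701887), of a family with wax ester synthases, had 6.49 RPKM in Reinette Parmentier, 0.65 RPKM in Patte de Loup and 0.99 RPKM in St Edmund's Pippin. In the other libraries these 4 genes had 2 to 60 reads.

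The low genes of St Edmund's Pippin lay in fatty acid elongation and cutin assembly. KCS6, or CER6, the main elongase of cuticular wax (MDP0000392495), had 0.77 RPKM in St Edmund's Pippin, against 14.2 RPKM in Reinette Parmentier and 9.91 RPKM in Patte de Loup, a ratio of 0.0777 to Patte de Loup (0.0408 to 0.135). GPAT6, which makes cutin precursors (MDP0000479163), had 4.67 RPKM in St Edmund's Pippin, 18.8 RPKM in Reinette Parmentier and 20.6 RPKM in Patte de Loup, with a ratio of 0.249 (0.193 to 0.318). PAS2 and CER10 catalyse later steps of the elongation cycle, which serves wax, suberin and sphingolipids alike. PAS2 (MDP0000337353) had 30.9 RPKM in St Edmund's Pippin, 76.2 RPKM in Reinette Parmentier and 86.9 RPKM in Patte de Loup, and CER10 (MDP0000062802) had 5.89, 13.8 and 14.7 RPKM in those varieties, with 37.7% and 32.7% unique reads.

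In Patte de Loup the low genes were CER3 and the second KCS10 copy. CER3, which works with CER1 in making wax alkanes (MDP0000165547), had 50.5 RPKM in Patte de Loup, against 293 RPKM in Reinette Parmentier and 187 RPKM in St Edmund's Pippin, a ratio of 0.27 to St Edmund's Pippin (0.255 to 0.286). It was the most abundant kept cutin and wax gene in St Edmund's Pippin and Reinette Parmentier, whereas PAS2 held that place in Patte de Loup. CER1 itself (MDP0000461409) was listed at 0.12 RPKM in Patte de Loup, 0.11 RPKM in Reinette Parmentier and 0.24 RPKM in St Edmund's Pippin and was not kept. KCS10 copy MDP0000134273 had 5.36 RPKM in Patte de Loup, 19.2 RPKM in Reinette Parmentier and 16.2 RPKM in St Edmund's Pippin, with a ratio of 0.331 (0.27 to 0.404). The member named WIN1, which the description calls HOPW1-1-interacting 1 rather than a cuticle regulator, stayed within the threshold. Among the 4 kept 3-ketoacyl-CoA synthase genes, which are the KCS genes already given, 2 were lowest in St Edmund's Pippin, 1 was highest in Reinette Parmentier and 1 was lowest in Patte de Loup, so that none of the 4 lay within the threshold.

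Precursor pathways of these lipids also differed between varieties. The fatty acid, isoprenoid and squalene lists were drawn up after their members had been seen to differ, and their counts are descriptions of that choice. Of 7 kept squalene epoxidase and triterpene cyclase genes, 6 were lowest in St Edmund's Pippin, with a median deviation of -1.82 there, 0.49 in Reinette Parmentier and 1.54 in Patte de Loup. Of 10 kept isoprenoid precursor genes, 6 were lowest in Patte de Loup, with a median deviation of -1.28 in Patte de Loup, 0.60 in Reinette Parmentier and 0.66 in St Edmund's Pippin. Of 15 kept fatty acid genes, 5 were highest in Reinette Parmentier, with a median deviation of 1.10 in Reinette Parmentier, -0.49 in Patte de Loup and -0.64 in St Edmund's Pippin.

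Triterpenes are formed by oxidation of squalene and cyclisation of the product. Squalene epoxidase SQE1 (MDP0000260827) had 0.76 RPKM in St Edmund's Pippin, against 5.23 RPKM in Reinette Parmentier and 5.76 RPKM in Patte de Loup, a ratio of 0.146 (0.0782 to 0.253). The terpenoid cyclase gene MDP0000207731 matches AT1G78950, an amyrin synthase locus, and had 18.5 RPKM in St Edmund's Pippin, 68.4 RPKM in Reinette Parmentier and 124 RPKM in Patte de Loup, with a ratio of 0.27 (0.221 to 0.327). Its relatives MDP0000194935 (49.8% unique reads) and MDP0000205224 had 10.1 and 1.92 RPKM in St Edmund's Pippin, 40.8 and 7.09 in Reinette Parmentier, and 68.3 and 11.7 in Patte de Loup. The camelliol C synthase match CAMS1 (MDP0000951949, 31.7% unique reads) had 51.2 RPKM in St Edmund's Pippin, 135 RPKM in Reinette Parmentier and 248 RPKM in Patte de Loup. The order of the suberin genes was seen in 6 of the 7 members. The exception, the cyclase gene MDP0000227287, had 398 RPKM in Reinette Parmentier, 150 RPKM in Patte de Loup and 226 RPKM in St Edmund's Pippin.

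Several steps of the mevalonate pathway, which supplies squalene, were lowest in Patte de Loup, whose values were the top ones for 6 of the 7 squalene and cyclase genes but not by a gap of 1. Acetoacetyl-CoA thiolase ACAT2 (MDP0000231084), the first enzyme of that pathway, had 169 RPKM in Patte de Loup, against 440 RPKM in Reinette Parmentier and 437 RPKM in St Edmund's Pippin, a ratio of 0.385 to St Edmund's Pippin (0.371 to 0.4). The isomerase IPP1 (MDP0000198327, 23.1% unique reads) had 20.6 RPKM in Patte de Loup, 68.3 RPKM in Reinette Parmentier and 75.8 RPKM in St Edmund's Pippin. Farnesyl diphosphate synthase FPS1 joins the isoprene units. Its copy MDP0000140046 had 16.9 RPKM in Patte de Loup, 40.9 RPKM in Reinette Parmentier and 65.7 RPKM in St Edmund's Pippin. The copy MDP0000857061 (39.7% unique reads) was both lowest in Patte de Loup, at 20.8, and highest in St Edmund's Pippin, at 91.5, with 43.6 in Reinette Parmentier. CYP716A1 (MDP0000440922), of the P450 family that oxidises triterpenes, had 25.3 RPKM in Patte de Loup, 56.2 RPKM in Reinette Parmentier and 80.9 RPKM in St Edmund's Pippin. With genes of at least 50% unique reads alone, 2 precursor genes were lowest in Patte de Loup.

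Deoxyxylulose-5-phosphate synthase (DXS) opens the plastid route to the same units, and its copies differed in opposite varieties. The copy MDP0000793656 had 1.81 RPKM in St Edmund's Pippin, against 20.6 RPKM in Reinette Parmentier and 23.9 RPKM in Patte de Loup, a ratio of 0.088 (0.0635 to 0.119). The copy MDP0000253802 had 7.57 RPKM in Patte de Loup and 19.7 RPKM in both other varieties, with 11.2% unique reads. The planned list of triterpene and terpenoid genes, which holds CYP716A1 and the 4 terpenoid cyclase genes, had 3 of 5 members lowest in St Edmund's Pippin and 1 lowest in Patte de Loup.

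The 5 fatty acid genes highest in Reinette Parmentier include plastid synthesis genes, whereas a desaturase gene was lowest there. EMB3003, a subunit of plastid pyruvate dehydrogenase (MDP0000150877), had 21.0 RPKM in Reinette Parmentier, against 7.01 RPKM in Patte de Loup and 6.60 RPKM in St Edmund's Pippin, a ratio of 2.99 (2.52 to 3.57). The E1 alpha subunit of that enzyme (MDP0000134947, 18.2% unique reads) had 135 RPKM in Reinette Parmentier, 55.9 RPKM in Patte de Loup and 49.9 RPKM in St Edmund's Pippin. The enoyl reductase ENR1, which closes each cycle of chain growth (MDP0000350866, 37.4% unique reads), had 104 RPKM in Reinette Parmentier, 47.7 RPKM in Patte de Loup and 45.9 RPKM in St Edmund's Pippin. The stearoyl-ACP desaturase gene MDP0000233546 instead was lowest in Reinette Parmentier, with 36.5 RPKM, against 197 RPKM in Patte de Loup and 286 RPKM in St Edmund's Pippin, a ratio of 0.185 (0.172 to 0.199). FAD2, the desaturase of oleate (MDP0000281451, 49.2% unique reads), was lowest in Patte de Loup with 35.5 RPKM, against 138 RPKM in Reinette Parmentier and 139 RPKM in St Edmund's Pippin. WRI1, an activator of fatty acid synthesis genes (MDP0000197940), was the 1 called member of 10 AP2 and ERF factors and was lowest in Patte de Loup, with 17 reads there, 56 reads in Reinette Parmentier and 27 reads in St Edmund's Pippin, and with unique reads its gap was 0.85, below the threshold.

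**Figure D3:**
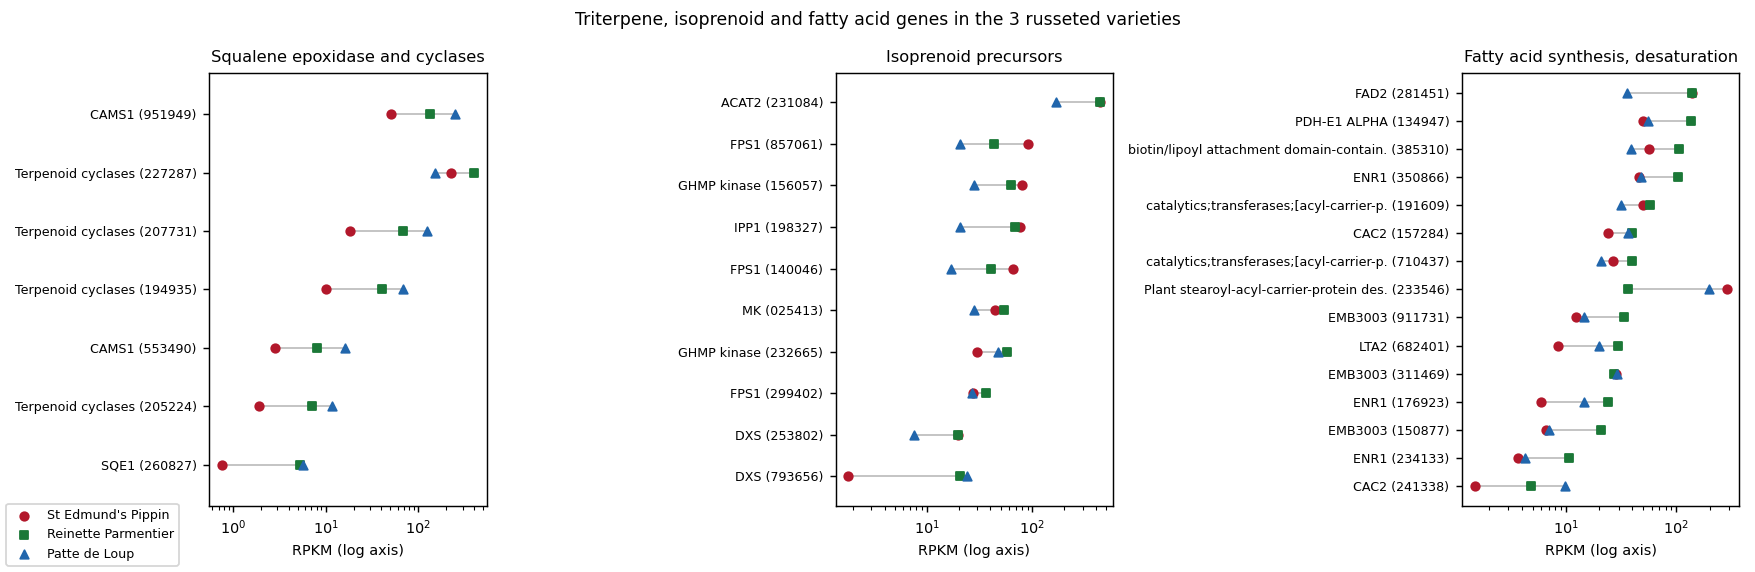
RPKM (log axis) of kept squalene epoxidase and triterpene cyclase genes, isoprenoid precursor genes, and fatty acid synthesis and desaturation genes, 1 point per variety and gene, last 6 digits of the identifier in brackets. St Edmund's Pippin lies at the low end of 6 of 7 genes on the left, Patte de Loup at the low end of most in the middle, and Reinette Parmentier at the high end of most on the right.

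Other families that handle lipids differed in their counts, beside 11.0% of all kept genes lowest in St Edmund's Pippin. GDSL lipases, a family that includes cutin and suberin polymerases, had 3 of 4 members lowest in St Edmund's Pippin and 1 highest in Reinette Parmentier. MDP0000146006 had 4.99 RPKM in St Edmund's Pippin, against 49.1 RPKM in Reinette Parmentier and 60.1 RPKM in Patte de Loup, with 26.8% unique reads. A lipid transfer protein gene (MDP0000246150), 1 of 2 in the list, had 4.73 RPKM in St Edmund's Pippin, 31.6 RPKM in Reinette Parmentier and 32.9 RPKM in Patte de Loup, a ratio of 0.15 (0.0972 to 0.222). Of 11 HXXXD acyltransferases, 1 was lowest in St Edmund's Pippin, 2 were highest and 1 was lowest in Reinette Parmentier, and 1 was highest in Patte de Loup. The last 2 calls are 1 gene, MDP0000637737, with 6.70 RPKM in Reinette Parmentier, 739 RPKM in Patte de Loup and 153 RPKM in St Edmund's Pippin, and 33.7% unique reads.

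Membrane transporters lay within the threshold in 45 of 57 genes, against 864 of all 1133 kept genes, so their share is near that of all genes. In this list 4 were lowest in St Edmund's Pippin, 4 were highest and 2 lowest in Reinette Parmentier, and 2 were highest and 1 lowest in Patte de Loup. A pair of ABC-2 genes that match AT3G21090 were highest in Reinette Parmentier, with 11.4 and 10.4 RPKM there, against 2.81 and 0.60 in St Edmund's Pippin and 1.99 and 3.14 in Patte de Loup (MDP0000094058 and MDP0000149064). The aquaporin PIP2;8 (MDP0000142957) had 99.9 RPKM in Patte de Loup, 28.7 RPKM in Reinette Parmentier and 44.3 RPKM in St Edmund's Pippin, and its gap fell to 0.99 after rescaling by median ratios. The word match of this list also took in the stearoyl-ACP desaturase, which is no transporter, and early nodulin-like genes, not described as transporters. Of these, ENODL17 (MDP0000923711) was among those lowest in St Edmund's Pippin. ENODL14 (MDP0000569069, 10.4% unique reads) was the 1 member lowest in Patte de Loup, and with unique reads its gap was 0.76, below the threshold.

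The largest single gap of all belonged to a gene that was nearly silent in St Edmund's Pippin. The tyrosine transaminase gene MDP0000934476, of a family that starts tyrosine breakdown and vitamin E synthesis, had 0.41 RPKM in St Edmund's Pippin, against 72.6 RPKM in Reinette Parmentier and 77.5 RPKM in Patte de Loup. These levels rest on 2, 602 and 579 reads, and the ratio was 0.00559 to Reinette Parmentier (0.000675 to 0.0203). The protease inhibitor gene CYSB (MDP0000150340) had 1.84 RPKM in St Edmund's Pippin, 21.3 RPKM in Reinette Parmentier and 33.5 RPKM in Patte de Loup. A zinc-binding alcohol dehydrogenase gene (MDP0000874667) had 12.9 RPKM in St Edmund's Pippin, 188 RPKM in Reinette Parmentier and 91.7 RPKM in Patte de Loup. The gene MDP0000278260, of the DUF538 family of unknown function, was abundant in all varieties, with 119 RPKM in St Edmund's Pippin, 728 RPKM in Reinette Parmentier and 742 RPKM in Patte de Loup.

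On the high side of St Edmund's Pippin the leading gene was MLP423 (MDP0000294379), a member of the major latex protein family. It had 963 RPKM in St Edmund's Pippin, against 61.9 RPKM in Reinette Parmentier and 27.0 RPKM in Patte de Loup, a ratio of 15.6 (14.7 to 16.5), with 51.0% unique reads. A second MLP423 copy, MDP0000840722, had 93.8 RPKM in St Edmund's Pippin, 20.7 RPKM in Reinette Parmentier and 7.67 RPKM in Patte de Loup, but 29.3% unique reads, and its direction reversed when unique reads alone were used. RHA2B (MDP0000612469), a RING-type ubiquitin ligase of abscisic acid responses, had 77.2 RPKM in St Edmund's Pippin, 7.76 RPKM in Reinette Parmentier and 1.28 RPKM in Patte de Loup, and was at once highest in the first and lowest in the last. Sucrose synthase SUS4 (MDP0000250070), which splits sucrose, had 133 RPKM in St Edmund's Pippin, 47.6 RPKM in Reinette Parmentier and 49.3 RPKM in Patte de Loup. The others of the 8 largest gaps on this side were a remorin gene, VIP1, ZIFL1, the histone gene HTA7 and a gene of unknown function, with ratios of 2.36 to 2.83.

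In Reinette Parmentier the largest gap above both others of a described gene was that of a copy of ELIP1, an early light-induced protein gene. ELIP proteins bind chlorophyll and protect against excess light. This copy, MDP0000542944, had 56.8 RPKM in Reinette Parmentier, against 4.10 RPKM in Patte de Loup and 2.88 RPKM in St Edmund's Pippin, a ratio of 13.9 (10.1 to 19.5). The other copy, MDP0000840536, had 3595 RPKM in Reinette Parmentier, 921 RPKM in Patte de Loup and 366 RPKM in St Edmund's Pippin, with a ratio of 3.9 (3.82 to 3.99), and was also lowest in St Edmund's Pippin. The kinase gene D6PKL3 (MDP0000235502) had 5.39 RPKM in Reinette Parmentier, 0.34 RPKM in Patte de Loup and 0.10 RPKM in St Edmund's Pippin. A 2-oxoglutarate oxygenase gene (MDP0000147913) had 56.8 RPKM in Reinette Parmentier, 11.7 RPKM in Patte de Loup and 6.40 RPKM in St Edmund's Pippin. S-adenosylmethionine synthetase SAM1 (MDP0000310936), which makes the methyl donor of many reactions, was named after its values had been seen, with 908 RPKM in Reinette Parmentier, 324 RPKM in Patte de Loup and 364 RPKM in St Edmund's Pippin. In the authors' deposited table, 37 of the 39 genes highest in Reinette Parmentier had a lower mean in russeted than in waxy exocarp, against 264 of the 1133 kept genes. By the authors' deposited table the mean was also lower in russeted exocarp for 61 of the 125 genes lowest in St Edmund's Pippin, 23 of the 39 lowest in Patte de Loup and 4 of the 33 lowest in Reinette Parmentier. Among the genes highest in St Edmund's Pippin it was lower for 10 of 25, and among those highest in Patte de Loup for 11 of 29, in the authors' deposited table. The libraries compared here had also entered the authors' means and their choice of genes. A gene low in russeted exocarp could pass the read minimum only through the library in which it was highest. These counts, the 37 of 39 among them, therefore depend in part on how genes were selected, and how far was not tested.

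The genes lowest in Reinette Parmentier included regulators of daily rhythm and stress proteins. CDF3 (MDP0000828573), a cycling DOF factor, had 5.74 RPKM in Reinette Parmentier, against 16.7 RPKM in Patte de Loup and 19.5 RPKM in St Edmund's Pippin, a ratio of 0.345 (0.284 to 0.417). RVE7, also named EPR1 (MDP0000795432), a relative of the clock gene CCA1, had 4.36 RPKM in Reinette Parmentier, 11.9 RPKM in Patte de Loup and 12.8 RPKM in St Edmund's Pippin. The hour of harvest is not given in the labels, and its part in these values was not tested. An HSP20-like chaperone gene (MDP0000323296) had 28.0 RPKM in Reinette Parmentier, 98.9 RPKM in Patte de Loup and 99.1 RPKM in St Edmund's Pippin. A wound-responsive family gene (MDP0000348107) had 49.2 RPKM in Reinette Parmentier, 169 RPKM in Patte de Loup and 226 RPKM in St Edmund's Pippin. The glycolytic enzyme enolase, ENO2 (MDP0000238942), had 103 RPKM in Reinette Parmentier, 349 RPKM in Patte de Loup and 247 RPKM in St Edmund's Pippin.

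The gene with the largest gap above both others in Patte de Loup, among described genes, was CHAT. CHAT (MDP0000722697), an acetyltransferase that makes the leaf volatile hexenyl acetate, had 60.5 RPKM in Patte de Loup, against 3.38 RPKM in Reinette Parmentier and 9.76 RPKM in St Edmund's Pippin, a ratio of 6.2 (4.74 to 8.23). IMS1 (MDP0000123747), an isopropylmalate synthase of leucine synthesis, had 20.5 RPKM in Patte de Loup, 3.34 RPKM in Reinette Parmentier and 3.70 RPKM in St Edmund's Pippin. A ribosomal L18p family gene (MDP0000321210) had 420 RPKM in Patte de Loup, 96.1 RPKM in Reinette Parmentier and 31.7 RPKM in St Edmund's Pippin, and was lowest in St Edmund's Pippin as well. The glycosyltransferase UGT72B1 (MDP0000146703), which acts on phenolic compounds, had 128 RPKM in Patte de Loup, 34.0 RPKM in Reinette Parmentier and 52.9 RPKM in St Edmund's Pippin. A pair of cupredoxin genes with the same Arabidopsis match (MDP0000175065 and MDP0000185485) had 82.6 and 185 RPKM in Patte de Loup, 19.0 and 37.5 in St Edmund's Pippin, and 30.9 and 86.4 in Reinette Parmentier. The gap of MDP0000185485 fell to 0.97 after rescaling by median ratios.

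At the low end of Patte de Loup stood a methyltransferase gene (MDP0000312765), with 15.8 RPKM in Patte de Loup, against 249 RPKM in Reinette Parmentier and 68.1 RPKM in St Edmund's Pippin. It was also called highest in Reinette Parmentier. The MADS-box genes SVP and AGL24, regulators of flowering with relatives in bud dormancy, were the 2 members of 38 bHLH, homeobox, MADS, zinc-finger and other factors that were lowest in Patte de Loup. SVP (MDP0000232313) had 11.1 RPKM in Patte de Loup, 26.7 RPKM in Reinette Parmentier and 28.4 RPKM in St Edmund's Pippin. The ratio of AGL24 (MDP0000378412) to St Edmund's Pippin was 0.364 (0.203 to 0.637). The factor bZIP44 (MDP0000448715) was lowest in St Edmund's Pippin, with 287 RPKM, against 735 RPKM in Reinette Parmentier and 639 RPKM in Patte de Loup, with a gap of 0.98 after rescaling by median ratios. The homeodomain gene BLH1 (MDP0000546502), chosen after its values were seen, had 2.18 RPKM in Patte de Loup, 114 RPKM in Reinette Parmentier and 70.4 RPKM in St Edmund's Pippin, the largest gap below both others in Patte de Loup, with 10.6% unique reads. The words of the list of 38 factors missed BLH1, so its count of 2 lowest in Patte de Loup leaves this gene out.

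**Figure D4:**
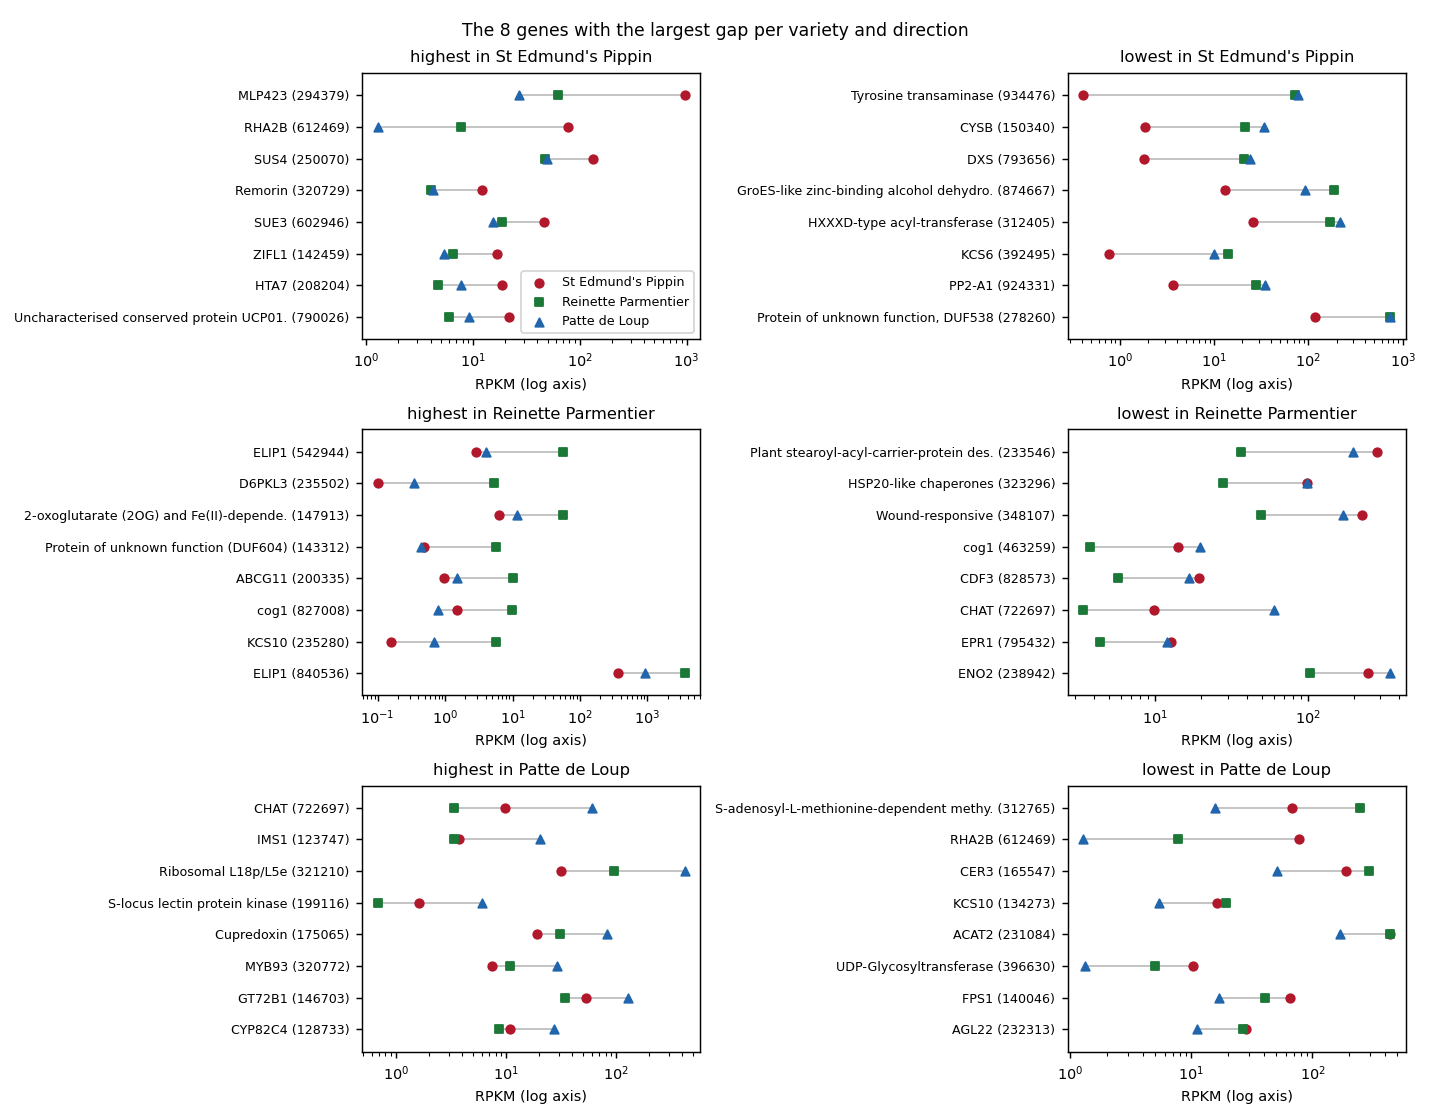
RPKM (log axis) of the 8 described genes with the largest gap in each variety and direction, among genes with at least 50% unique reads; rows of panels are varieties, the left column shows highest and the right column lowest genes, and points are single libraries. The longest line belongs to the tyrosine transaminase gene, at 0.41 RPKM in St Edmund's Pippin and 72.6 and 77.5 RPKM in the other 2.

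Among transcription factor families, the NAC and MYB lists held several called members. Of all kept genes, 23.7% were called in some way, with 11.0% lowest in St Edmund's Pippin and 2.56% highest in Patte de Loup. Of 7 kept NAC genes, 2 were highest in Patte de Loup and 1 was lowest in St Edmund's Pippin. NAC038 (MDP0000232008) had 121 RPKM in Patte de Loup, against 56.8 RPKM in Reinette Parmentier and 50.4 RPKM in St Edmund's Pippin, a ratio of 2.12 (1.97 to 2.28). After rescaling by median ratios its gap was 0.95, below the threshold. The copies of NAC075, a regulator of vascular and secondary wall genes, did not move together. MDP0000618650 had 6.93 RPKM in Patte de Loup, 2.67 RPKM in Reinette Parmentier and 2.07 RPKM in St Edmund's Pippin, while the copies MDP0000124509 and MDP0000723762 had their highest values, 8.51 and 8.33 RPKM, in St Edmund's Pippin. NAC058 (MDP0000130785) had 3.64 RPKM in St Edmund's Pippin, 9.22 RPKM in Reinette Parmentier and 17.3 RPKM in Patte de Loup.

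Of 14 kept MYB genes, 3 were lowest in St Edmund's Pippin, 1 was highest and 1 lowest in Reinette Parmentier, and 1 was highest in Patte de Loup. The gene highest in Patte de Loup and 1 of those lowest in St Edmund's Pippin are the MYB93 copies already counted with the suberin genes. MYB94 (MDP0000149535), an activator of wax genes, had 0.98 RPKM in St Edmund's Pippin, against 4.89 RPKM in Reinette Parmentier and 4.91 RPKM in Patte de Loup, a ratio of 0.201 (0.107 to 0.351). MYB52 (MDP0000291518) had 2.64 RPKM in St Edmund's Pippin, 11.7 RPKM in Reinette Parmentier and 10.5 RPKM in Patte de Loup. MYB42 (MDP0000787808), known with lignin genes, had 30.9 RPKM in Reinette Parmentier, 11.2 RPKM in Patte de Loup and 12.0 RPKM in St Edmund's Pippin. Among 5 WRKY genes WRKY28 (MDP0000505247) alone was called, lowest in St Edmund's Pippin with 16.6 RPKM, against 40.2 RPKM in Reinette Parmentier and 35.2 RPKM in Patte de Loup, with a gap of 0.88 after rescaling.

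Phenolic genes were split between lists. Among all kept genes, 23.7% were called in some way, with 11.0% lowest in St Edmund's Pippin. The shares highest and lowest were 3.44% and 2.91% in Reinette Parmentier, and 2.56% and 3.44% in Patte de Loup. Of 5 phenylpropanoid and lignin genes, 1 was called, the laccase gene LAC15 (MDP0000655646, 47.8% unique reads), with 12.8 RPKM in Reinette Parmentier, 36.7 RPKM in Patte de Loup and 31.5 RPKM in St Edmund's Pippin. The median deviation of this list was -1.01 in Reinette Parmentier, 0.83 in Patte de Loup and -0.09 in St Edmund's Pippin. Flavonoid genes had 1 of 4 lowest in St Edmund's Pippin, and 1 highest and 1 lowest in Reinette Parmentier, the lowest being LAC15 again. The monolignol gene CCR1 (MDP0000322755), the 1 xylem marker in the table, had 117 RPKM in St Edmund's Pippin, 471 RPKM in Reinette Parmentier and 321 RPKM in Patte de Loup, a ratio of 0.364 (0.345 to 0.385). Cinnamate hydroxylase C4H (MDP0000602841, 47.8% unique reads) had 10.9 RPKM in St Edmund's Pippin, 44.5 RPKM in Reinette Parmentier and 43.4 RPKM in Patte de Loup. CCR1, C4H and the methyltransferase OMT1 (MDP0000274409) were called lowest in St Edmund's Pippin. They are not in the phenylpropanoid and lignin list, so its count and median leave them out. Of 14 cytochrome P450 genes, with C4H and the CYP86A1 pair among them, 3 were lowest in St Edmund's Pippin, 1 was lowest in Reinette Parmentier, and 1 was highest and 1 lowest in Patte de Loup. Peroxidases had 1 of 3 lowest in St Edmund's Pippin (TPX1, a thioredoxin-dependent enzyme) and 1 highest in Patte de Loup (MDP0000598572, with a gap of 0.95 after rescaling by median ratios).

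The next counts stand beside 23.7% of all kept genes called in some way. In St Edmund's Pippin 11.0% of all kept genes were lowest and 2.21% highest. The shares highest and lowest were 3.44% and 2.91% in Reinette Parmentier, and 2.56% and 3.44% in Patte de Loup. Of 6 kept 2-oxoglutarate oxygenases, 3 were lowest in St Edmund's Pippin and 1 was highest in Reinette Parmentier. MDP0000843913 had 53.3 RPKM in St Edmund's Pippin, 219 RPKM in Reinette Parmentier and 177 RPKM in Patte de Loup. Of 14 short-chain dehydrogenases and related Rossmann-fold genes, 5 were lowest in St Edmund's Pippin and 3 were highest in Reinette Parmentier. The leading member of this list, NYC1 (MDP0000124013), a chlorophyll b reductase, had 6.19 RPKM in St Edmund's Pippin, 32.3 RPKM in Reinette Parmentier and 38.3 RPKM in Patte de Loup. The words of the list also took in squalene epoxidase SQE1, which is no short-chain dehydrogenase, among the genes lowest in St Edmund's Pippin. Among those highest in Reinette Parmentier they took in the ENR1 copy MDP0000234133 (32.8% unique reads). SQE1 and ENR1 were already counted with the squalene and fatty acid genes. All 6 copper-binding and redox genes were called, 3 lowest and 2 highest in St Edmund's Pippin and 2 highest in Patte de Loup, 1 gene counting under both. Of 18 glycosyltransferase and glutathione transferase genes, 2 were highest and 1 lowest in St Edmund's Pippin, and 1 was highest and 3 lowest in Patte de Loup. The gene MDP0000016819 (11.4% unique reads) counts both as highest in St Edmund's Pippin and as lowest in Patte de Loup. With unique reads its gaps were 0.69 and 0.66, below the threshold. GSTF9 (MDP0000181272, 35.7% unique reads), the 1 lowest in St Edmund's Pippin, then had a gap of 0.70, also below it. Of 8 photosynthesis and chloroplast genes, 2 were lowest in St Edmund's Pippin, and 2 were highest and 1 lowest in Reinette Parmentier, both highest ones being the ELIP1 pair.

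The counts of wall, vascular and hormone genes are given beside those of all kept genes, where 150 of 290 calls were in St Edmund's Pippin. Of 25 cell wall polysaccharide genes, 5 were lowest in St Edmund's Pippin and 1 was highest in Reinette Parmentier, and the list's median deviation was 0.02 for St Edmund's Pippin, 0.10 for Reinette Parmentier and 0.01 for Patte de Loup. The pectin methylesterase PME44 (MDP0000141033) accounts for a call in each, with 0.36 RPKM in St Edmund's Pippin, 10.4 RPKM in Reinette Parmentier and 3.52 RPKM in Patte de Loup. A cellulase gene (MDP0000753366) had 3.47 RPKM in St Edmund's Pippin, 17.5 RPKM in Reinette Parmentier and 12.7 RPKM in Patte de Loup. The words of the cell wall list also took in MDP0000153759 and MDP0000921896 (48.8% unique reads), described as hydroxyproline-rich glycoproteins, which are among its genes lowest in St Edmund's Pippin. Of 15 phloem and sugar genes, 4 were lowest and 1 highest in St Edmund's Pippin. The phloem lectin gene PP2-A1 (MDP0000924331) had 3.70 RPKM in St Edmund's Pippin, 27.6 RPKM in Reinette Parmentier and 34.3 RPKM in Patte de Loup. PP2-A9 (MDP0000206154) had 5.13, 18.5 and 31.7 RPKM in those varieties, while the PP2-A12 pair were highest in St Edmund's Pippin within the threshold, so the 4 phloem markers did not move together.

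Of 5 genes in the abscisic acid and carotenoid list, 2 were lowest in St Edmund's Pippin. Zeaxanthin epoxidase ABA1 (MDP0000189613), which acts upstream of abscisic acid, had 1.85 RPKM there, 10.9 in Reinette Parmentier and 9.03 RPKM in Patte de Loup. The other, MDP0000153759, is described as a late embryogenesis abundant hydroxyproline-rich glycoprotein, which the words of the cell wall list also took in. Of 6 auxin genes 1, IAA17 (MDP0000123816, 18.3% unique reads), was lowest in Patte de Loup. The 2 genes of ethylene, jasmonate, gibberellin, cytokinin and brassinosteroid stayed within the threshold. Phloem markers (4 genes) summed to 50.3 RPKM in St Edmund's Pippin, 70.0 RPKM in Reinette Parmentier and 102 RPKM in Patte de Loup, and green hypodermis markers (3 genes) to 111, 169 and 121 RPKM in the same order of varieties. Ripening flesh markers (5 pectin methylesterase genes) summed to 136, 108 and 112 RPKM in those varieties. None of these markers was at 0 reads, and the part of tissue makeup in the results was not tested.

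Immune receptor and kinase genes are numerous in the table. Of 50 NBS-LRR and TIR genes 44 were not called, against 864 of all 1133 kept genes, with 1 highest and 1 lowest in St Edmund's Pippin, and 1 highest and 3 lowest in Reinette Parmentier. A pair with the same RPP1 match went opposite ways in Reinette Parmentier. MDP0000827008 had 9.77 RPKM in Reinette Parmentier, 0.79 RPKM in Patte de Loup and 1.49 RPKM in St Edmund's Pippin, and MDP0000463259 had 3.72 RPKM in Reinette Parmentier, 19.6 RPKM in Patte de Loup and 14.1 RPKM in St Edmund's Pippin. Of 9 lectin-domain kinases, 1 was lowest in St Edmund's Pippin and 1 highest in Patte de Loup. Of 26 receptor kinases, 1 was highest in Reinette Parmentier and 2 were lowest in Patte de Loup. The list of 58 other protein kinases shares members with the lectin-domain and receptor kinase lists. In it 2 were lowest in St Edmund's Pippin, 1 was highest in Reinette Parmentier, and 1 was highest and 1 lowest in Patte de Loup. Of these calls, only NAK (MDP0000131302), lowest in St Edmund's Pippin, and D6PKL3, highest in Reinette Parmentier, were not already counted in those lists. Defence and pathogenesis genes had 2 of 11 highest in St Edmund's Pippin, both MLP423, 1 lowest in Reinette Parmentier and 3 lowest in Patte de Loup.

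The counts of housekeeping lists stand beside the 23.7% of all kept genes that were called. Of 15 histone, cyclin, tubulin and cell division genes, 1 was highest and 1 lowest in St Edmund's Pippin and 1 was highest in Patte de Loup. Of 16 heat shock and chaperone genes, 2 were highest in St Edmund's Pippin and 1 was lowest in Reinette Parmentier. Of 44 ubiquitin and protein turnover genes, 2 were highest and 2 lowest in St Edmund's Pippin, 1 was lowest in Reinette Parmentier, and 1 was highest and 1 lowest in Patte de Loup. Of 25 ribosome and RNA processing genes, 2 were lowest in St Edmund's Pippin, 2 were lowest in Reinette Parmentier and 1 was highest in Patte de Loup. Of 10 calcium signalling genes, 2 were lowest in St Edmund's Pippin. Among the 37 planned lists, the median deviation of St Edmund's Pippin was at or below -1 in 8 and at or above 1 in 0, that of Reinette Parmentier at or above 1 in 4 and at or below -1 in 1, and that of Patte de Loup at or above 1 in 4 and at or below -1 in 0.

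**Figure D5:**
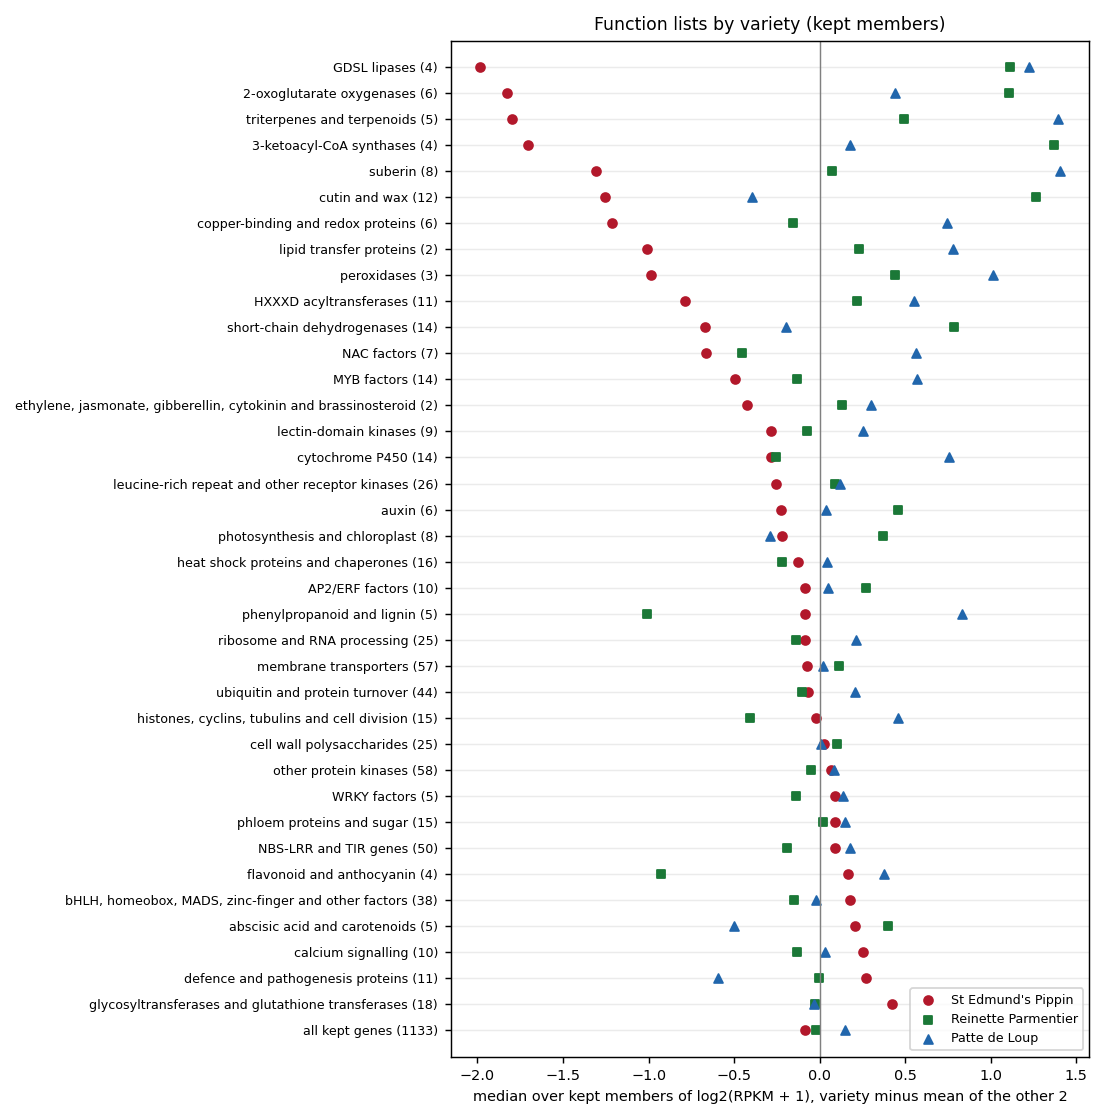
Median over kept members of log2(RPKM + 1) in a variety minus the mean of the other 2, for the 37 planned function lists (number of kept members in brackets) and for all 1133 kept genes; lists overlap, and points are medians over genes of single libraries. The GDSL lipase, triterpene, 3-ketoacyl-CoA synthase, suberin, cutin and wax, and lipid transfer protein lists lie at the top with St Edmund's Pippin lowest. So do 2-oxoglutarate oxygenases and copper-binding and redox proteins. The large kinase and receptor lists lie near 0 in all 3 varieties.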

How the data were processed

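The authors deposited total gene reads and unique gene reads (counts), RPKM values and coding lengths for 1261 genes; per the file headers the software was CLC Genomics Workbench 6.5. Exocarp slices freed of flesh gave poly(A) libraries that do not mark strand, per the labels' protocols. The genome build, like the aligner, is not given in the sources used here. Baggerley's test, with which the authors compared russeted and waxy exocarp, was deposited as a signed fold score, a log2 value and a p-value. From it, the direction alone was used here. Each column was tied to its library by the variety in its header, and 0 columns were left unmapped.

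Total reads and RPKM of the 3 russeted libraries were read with Python 3.11.15, pandas 2.3.3, NumPy 2.4.6 and SciPy 1.17.1. Mapped reads were recovered from the RPKM and reads of each gene that had at least 200 reads, taking the median, since table totals (4.71% to 5.26% of mapped reads) are no depth. Genes with at least 50 reads in 1 library were kept, and log2(RPKM + 1) was compared. A count test needs replicates, of which there were none. Ratios carry exact conditional (Clopper-Pearson) 95% intervals of the reads. PCR reads had no molecular identifiers, so intervals cover counting error only. The code that makes the calls was tested on simulated data, which says nothing of replicate error.

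Genes were named by rule: the 8 largest gaps per variety and direction among described genes with at least 50% unique reads, up to 2 called members per list, variety and direction, and copies with the same match. Other list members fill out a group, and genes named outside the rule include the marker CCR1, SAM1, BLH1, OPR3, OMT1, NADP-ME4 and PMSR4. The members and the 37 lists, by words in symbols and descriptions, were chosen with earlier results of these data known. After the values were seen, 3 lists were added, cycling DOF factors were taken off the cell division list, and aconitase and a PP2C phosphatase were taken off the markers. Alternatives were another pseudocount, no read minimum or a higher one, rescaling by median ratios, unique reads, genes with at least 50% unique reads, and the mean of the other 2 varieties. Of the identifiers, 0 matched the RefSeq table at hand, so no sequences or positions are given.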

Additional observations from a re-analysis of the deposited data

How the results depend on the processing

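No paired analysis was possible because each variety has 1 library, and for that reason no replicate could be left out. Of the 147 named gene results (137 genes), those still tested kept direction and threshold with a pseudocount of 0.1 (147), with no read minimum (147), against the mean of the other 2 (147), with at least 200 reads (107) and with at least 50% unique reads (112). After rescaling by median ratios 18 fell below the threshold, and with unique reads 21 did and 2 reversed. Both reversals are the MLP423 copy MDP0000840722, whose gap with unique reads was -3.54 for highest in St Edmund's Pippin and -1.95 for lowest in Patte de Loup.

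Against the mean of the other 2, a looser rule by construction, 52 genes were highest in St Edmund's Pippin, 86 highest and 71 lowest in Reinette Parmentier, and 110 highest and 62 lowest in Patte de Loup. By that rule 7 suberin genes were lowest in St Edmund's Pippin and 7 highest in Patte de Loup, 7 cutin and wax genes were lowest in St Edmund's Pippin, 4 were lowest in Patte de Loup, and 8 fatty acid genes were highest in Reinette Parmentier. After rescaling, 16 genes were highest in Patte de Loup, 1 of them a suberin gene. With at least 200 reads in 1 library, where fewer genes are compared, 21 genes were lowest in Reinette Parmentier, and 1 cutin and wax gene and 3 fatty acid genes were highest there. With at least 50% unique reads, also fewer genes, 22 genes were lowest in Patte de Loup, 2 isoprenoid precursor genes among them. In St Edmund's Pippin 3 cell wall, 2 cutin and wax and 3 squalene or cyclase genes were then lowest, and 2 fatty acid genes were highest in Reinette Parmentier. With unique reads 3 fatty acid genes were highest in Reinette Parmentier, and the cause was not tested. With no replicates, depth limits the precision most for genes such as the tyrosine transaminase, which had 2 reads in St Edmund's Pippin.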

Other observations

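Genes with no Arabidopsis description, 151 of the 1133 kept, included some of the largest gaps. MDP0000364885 had 189 RPKM in Reinette Parmentier, against 9.57 RPKM in Patte de Loup and 11.1 RPKM in St Edmund's Pippin, from 830 reads in Reinette Parmentier, 38 reads in Patte de Loup and 29 reads in St Edmund's Pippin. MDP0000325984 had 656 RPKM in St Edmund's Pippin, against 219 RPKM in Reinette Parmentier and 194 RPKM in Patte de Loup. On the low side, MDP0000158341 had 0.36 RPKM in St Edmund's Pippin, 5.64 RPKM in Reinette Parmentier and 5.71 RPKM in Patte de Loup. MDP0000276541 had 17.7 RPKM in Patte de Loup, 64.0 RPKM in Reinette Parmentier and 69.7 RPKM in St Edmund's Pippin, with 48.7% unique reads.

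Outside the lists, 4 genes named after their values were seen were lowest in St Edmund's Pippin, as were 11.0% of all kept genes. OPR3 (MDP0000186231), an enzyme of jasmonate synthesis, had 3.84 RPKM in St Edmund's Pippin, against 17.4 RPKM in Reinette Parmentier and 23.7 RPKM in Patte de Loup, a ratio of 0.22 (0.162 to 0.295). The methyltransferase OMT1 (MDP0000274409), which acts on lignin and flavonoid precursors, had 4.52 RPKM in St Edmund's Pippin, 17.9 RPKM in Reinette Parmentier and 19.1 RPKM in Patte de Loup. The malic enzyme NADP-ME4 (MDP0000568928) had 101 RPKM in St Edmund's Pippin, 340 RPKM in Reinette Parmentier and 424 RPKM in Patte de Loup. PMSR4 (MDP0000643284), which repairs oxidised methionine, had 165 RPKM in Patte de Loup, 29.6 RPKM in Reinette Parmentier and 13.4 RPKM in St Edmund's Pippin, so that it was also highest in Patte de Loup, with 47.6% unique reads.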
